A study of Caenorhabditis elegans with 4 samples.

Results

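FKH-10 is a forkhead-family transcription factor of the nematode Caenorhabditis elegans, and the regions described here are all its peaks on chromosome V in the list deposited for the series as a whole, 623 of 3792 (16.4%). They were chosen by chromosome alone, so measured strength played no part beyond a peak being listed at all. Chromosome V itself was chosen with earlier results of these data known. The list of ChIP replicate 1 held 182 peaks on V of 1169 in all, and that of replicate 2 held 406 of 2468.

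The data come from chromatin immunoprecipitation followed by sequencing (ChIP-seq) of whole hermaphrodites of strain OP337 at the L4 larval stage, grown at 20 °C. Every library, the controls included, carries the unc119(ed3) mutation and the transgene wgIs377, in which fkh-10 is joined to TY1, EGFP and FLAG tags and travels with an unc119 rescue gene. The labels name 4 samples in 2 groups, 2 ChIP libraries made with anti-GFP antibodies and 2 libraries of input DNA, and only peak lists of the ChIP libraries were analysed here. The transgene was introduced by bombardment and the strain outcrossed 3 times. The labels do not say how many copies it holds, where it inserted, or whether the 2 replicates are separate cultures, and the spread between them may therefore be technical. Peaks from whole animals do not tell in which cells a site was bound, and the tissue could not be checked against marker genes because peak lists hold no expression.

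Forkhead factors bind DNA through a winged-helix domain and regulate genes near their binding sites. The autosomes of C. elegans have a centre rich in conserved genes, where crossing over is rare, between arms where crossing over is frequent and repeats are more common. Chromosome V is known for its large families of chemoreceptor genes. Peaks were not assigned to genes or sequence here, because no annotation or genome of the build of the files, WormBase WS220, was used.

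A peak is given by its first and last base and by a q-value, an adjusted p-value, from the caller PeakSeq. The q-values are the authors' own, and they serve here only to rank and describe peaks within a list. A smaller q-value is called stronger. Peaks on V ran from base 8076 to base 20875087, a span of 20.9 Mb and the longest of the 6 chromosomes. The left arm, centre and right arm are 3 equal parts of that span, 6.96 Mb each, with the centre running from 6963747 to 13919417. The number of reads behind the lists is unknown. Percentages are followed where useful by exact Clopper-Pearson 95% intervals, which cover counting error only and treat peaks as independent. Regions of 1 pair of libraries are not replicates of a condition, so differences between parts of V or between chromosomes are described and were not tested.

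The centre of V held 312 of the 623 series-level peaks (50.1%, interval 46.1 to 54.1), the left arm 169 (27.1%) and the right arm 142 (22.8%). Density was 44.9 peaks per Mb in the centre, 24.3 in the left arm and 20.4 in the right arm, a centre-to-arm ratio of 2.01. In replicate 1 the centre held 95 of 182 peaks (52.2%, interval 44.7 to 59.6), with 49 in the left arm and 38 in the right. In replicate 2 it held 204 of 406 (50.2%, interval 45.3 to 55.2), with 111 in the left arm and 91 in the right. The centre-to-arm ratio was therefore 2.18 in replicate 1 and 2.02 in replicate 2, and each of the lists placed the centre first, the left arm second and the right arm last. For the arms the right-to-left ratio was 0.84 at the series level, with 0.78 and 0.82 in replicates 1 and 2. In the series-level list the intervals of the arms overlap (23.7 to 30.8% against 19.6 to 26.3%), so their order is less firm than the excess of the centre.

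**Figure D1:**
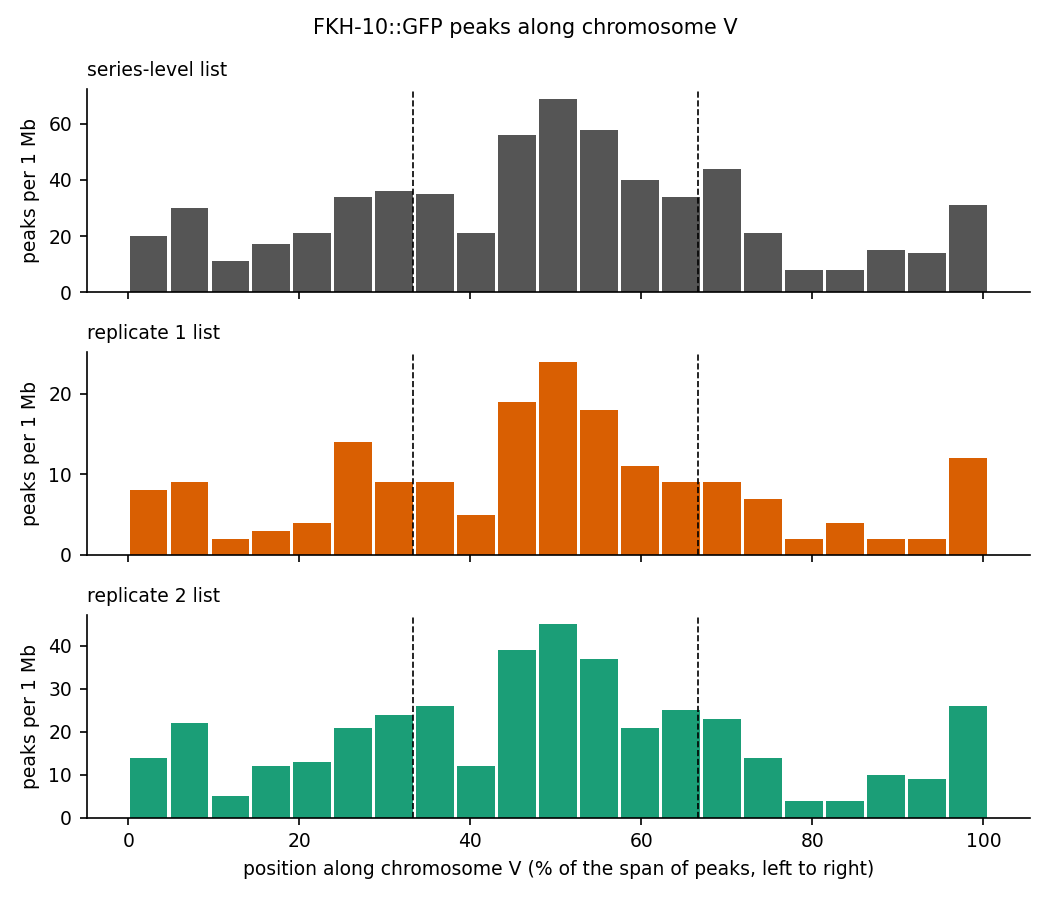
Peaks in each 1 Mb window of chromosome V, placed by percent of the span of peaks from left to right, for the series-level list and each ChIP replicate; dashed lines bound the centre. The window from 10000001 to 11000000 is the highest in every list, with 69, 24 and 45 peaks, and the windows from 16000001 to 18000000 are among the lowest.

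Within the centre the peaks crowded toward its middle. The 1 Mb windows from 9000001 to 12000000 held 56, 69 and 58 series-level peaks, against 35 and 21 in the windows just before them and 40 and 34 just after. The fewest were in the right arm, where the windows starting at 16000001 and 17000001 held 8 peaks each. The same windows held 2 and 4 peaks in replicate 1, and 4 and 4 in replicate 2. The arms were not evenly sparse. In the left arm the first window held 20 peaks, that from 1000001 to 2000000 held 30 and the one after it 11, before numbers reached 34 and 36 in the windows from 5000001 to 7000000. In the right arm the last window, from 20000001 to the end of the span, held 31 after 14 in the one before it. That last window held 12 peaks in replicate 1 and 26 in replicate 2, against 2 and 9 in the window before it. Over the 21 windows, peak numbers of the replicates rose and fell together (Spearman's rho 0.91, Pearson's r 0.95). This is a description across windows of a single chromosome from 1 pair of libraries.

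On the finer scale of 100 kb, 44 of 209 windows were empty at the series level, 115 in replicate 1 and 65 in replicate 2. The most crowded window was 10800001 to 10900000, with 16 peaks at the series level, and 7 and 10 in the replicates. The next was 10200001 to 10300000, with 12, of which 8 were in neither replicate list and 2 in both. Windows with 10 series-level peaks followed at 9200001, 10900001, 11600001 and 11900001. All 6 of these windows lie in the centre.

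Gaps between neighbouring peaks were very unequal. The median gap between series-level peaks was 12341.5 bases and the mean 33126 bases, a mean-to-median ratio of 2.68. The median gap was 8667 bases in the centre, 21366 in the left arm and 15908 in the right arm. Of 622 gaps, 75 (12.1%) were at most 1 kb and 225 (36.2%) at most 5 kb, while 45 were over 100 kb. Gaps of at most 5 kb made up 41.8% of gaps in the centre, 30.4% in the left arm and 31.2% in the right arm. In replicate 1 the median gap was 60488 bases and in replicate 2 it was 19846, in lists of fewer peaks. When peaks separated by at most 5 kb were chained, the 623 peaks formed 398 chains, 267 of them single peaks and 71 pairs. The longest chain ran from 10937288 to 10952217 in the centre and joined 7 peaks, of which replicate 1 had 2 and replicate 2 had 6. The next chains were 11979860 to 11994025, with 5 peaks, and 12314457 to 12326937, with 4. Peaks covered 18.0%, 13.9% and 10.6% of these 3 chains, so they were runs of separate narrow peaks and not broad regions.

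The longest stretch of V without a series-level peak ran from 16965994 to 17749168 in the right arm (783175 bases). Neither replicate had a peak inside this stretch. Emptiness of such stretches in the replicates was largely set in advance and is no separate evidence. On V, 181 of 182 peaks of replicate 1 and 393 of 406 of replicate 2 overlapped a series-level peak. In replicate 2 the stretch was again the longest, at 783246 bases, and in replicate 1 it was the third longest, at 783216 bases. It was bounded on the left by a peak at 16965611 to 16965993 (q = 2.46e-12, with 3.66e-07 and 4.99e-06 in replicates 1 and 2) and on the right by the strongest peak of the right arm. The other long stretches were 15874174 to 16350901 in the right arm (476728 bases), empty in both replicates, and 2135778 to 2600592 in the left arm (464815 bases). The latter held 1 peak of replicate 1, at 2200392 to 2200568 (q = 5.93e-04), and none of replicate 2.

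The strongest peak of V was 10174458 to 10175206, in the middle of the chromosome. It had q = 8.79e-41 in the series-level list and held rank 31 in each replicate (q = 2.10e-17 in replicate 1 and 1.32e-23 in replicate 2). In the whole series-level list it was number 29 by strength, and every stronger peak lay on another chromosome. Second came the widest peak of V, 6225676 to 6229813 in the left arm (4138 bp, q = 6.43e-40). Replicate 1 and replicate 2 each split that region into 2 peaks, the strongest at ranks 84 (q = 2.55e-11) and 86 (q = 5.52e-17). It is separated by 252 bases from another strong wide peak, 6224041 to 6225423 (q = 1.46e-26, 1.48e-09 in replicate 1 and 2.00e-17 in replicate 2), which was singled out after its values were seen. Peaks covered 70.2% of the 9417-base chain around both, 36.1% in replicate 1 and 36.8% in replicate 2, the largest number of covered bases (6615) of any chain on V.

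The third to seventh peaks all lay in the centre. The peak at 11640929 to 11641941 (q = 1.98e-36) had q = 1.35e-16 in replicate 1 and 8.66e-18 in replicate 2. The peak at 12024009 to 12024870 (q = 2.58e-35) had nearly equal values in the replicates, 2.41e-18 and 3.20e-18. The peak at 7110332 to 7111687 (q = 1.26e-33) was again split in each replicate, with its strongest parts at q = 1.95e-08 and 1.54e-15. The peak at 9765521 to 9765990 was the narrowest of the 10 strongest (470 bp, q = 6.01e-33) and ranked higher in replicate 2 (36, q = 2.05e-22) than in replicate 1 (93, q = 7.68e-11), although the list of replicate 2 is longer. The peak at 9343003 to 9344695 (q = 1.85e-32) showed the opposite order and the largest difference in rank of the 10, 27 in replicate 1 against 137 in replicate 2 (q = 3.28e-18 and 1.86e-14). The remaining 3 of the 10 were 5049285 to 5049935 in the left arm (q = 3.78e-29), 11340924 to 11342158 (q = 1.10e-28) and 9561571 to 9562304 (q = 1.12e-26), with ranks of 58 to 105 in replicate 1 and 62 to 94 in replicate 2. All 10 were thus present in both replicates, 8 in the centre, 2 in the left arm and 0 in the right arm.

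The strongest peaks of the right arm stood beside its longest empty stretch and at its end. The peak at 17749169 to 17749652 bounds the longest empty stretch (q = 1.96e-23, 3.89e-09 in replicate 1 and 5.17e-14 in replicate 2, rank 154 in each). The peak at 20874439 to 20875087 is the last of the span in all lists (q = 2.15e-23, 1.54e-09 in replicate 1 and 5.90e-15 in replicate 2). At the opposite end the first peak, 8076 to 9342, was also in both replicates (q = 5.95e-22, 5.72e-10 and 4.02e-13). The span begins and ends at a peak by definition, and the first and the last peak were both among the 27 strongest of V.

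The strongest peaks were somewhat more concentrated in the centre than all peaks were. The centre held 31 of the 50 strongest (62.0%, interval 47.2 to 75.3) and 61 of the 100 strongest (interval 50.7 to 70.6%), against 50.1% of all V peaks. The interval for the 50 strongest includes 50.1%. The left arm held 13 and the right arm 6 of the 50 strongest. The strongest 155 peaks included 26.9% of the centre's peaks, 23.1% of the left arm's and 22.5% of the right arm's, with overlapping intervals. The median q-value was 2.91e-06 in the centre, 8.87e-06 in the left arm and 7.50e-06 in the right arm. Replicate 1 gave 9.16e-06, 2.13e-05 and 1.94e-05 in the same order, and replicate 2 gave 5.52e-06, 2.36e-05 and 1.52e-05. The centre was the strongest part in every list by this measure, and the left arm the weakest.

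Recurrence on V was close to that of the whole series, chromosome I included. Both replicate lists held 165 of the 623 peaks (26.5%, interval 23.1 to 30.1), where 27.2% of all series-level peaks were in both. Neither list held 219 (35.2%, interval 31.4 to 39.0), against a background of 35.2%. That background includes chromosome I, where 60.5% were in neither. Over II, III, IV and X the share in neither was 30.8%, just below the interval of V, and the share in both was 29.8%, inside it. Replicate 2 alone held 225 (36.1%, background 35.1%) and replicate 1 alone held 14 (2.25%, background 2.45%), so 404 peaks were in at least 1 replicate list (background 64.8%). The parts of V differed by less than the width of their intervals. The share in both lists was 27.2% in the left arm, 26.6% in the centre and 25.4% in the right arm, with intervals of 20.7 to 34.6, 21.8 to 31.9 and 18.4 to 33.3%. Of the 14 peaks found in replicate 1 alone, 11 lay in the centre (3.53%, interval 1.77 to 6.22) and 3 in the arms (0.965%, interval 0.199 to 2.79).

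**Figure D2:**
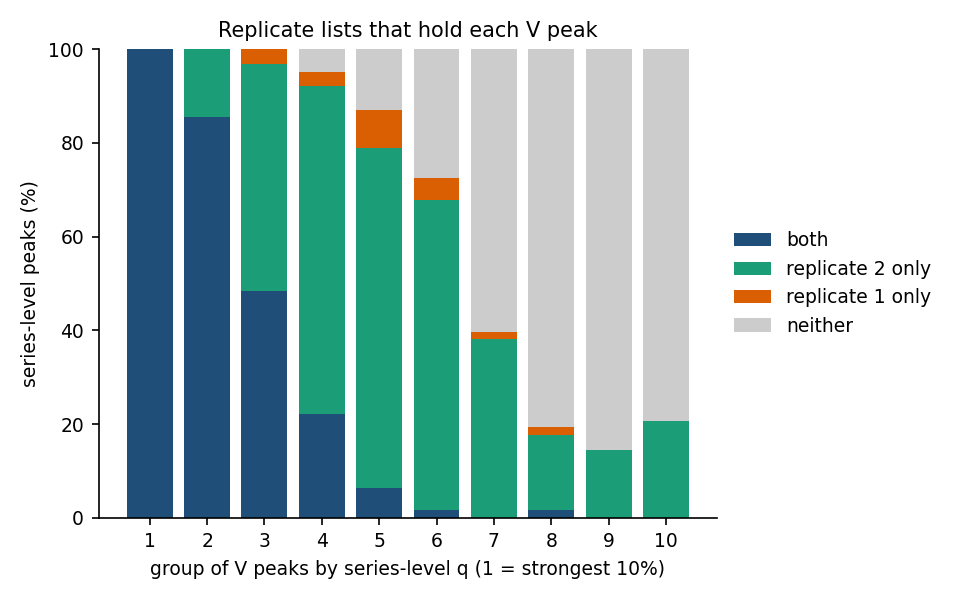
Share of V series-level peaks found in both replicate lists, in 1 of them or in neither, in 10 groups of about equal size ordered by series-level q-value from strongest (1) to weakest (10). All 62 peaks of the first group were in both lists, and 50 of the 63 in the last were in neither.

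Recurrence fell steeply from the strongest peaks to the weakest. The series-level q-values that order the peaks may not be independent of the replicate lists, since any pooling of reads is not given. Of the strongest 155 V peaks (q up to 7.51e-10), 134 recurred in both replicates (86.5%, interval 80.0 to 91.4) and 0 were in neither, which allows a share of up to 1.94% (3 counts of 155, the limit used here for a count of 0). In the next 156 (q up to 5.48e-06) the share in both was 18.6%, with 69.2% in replicate 2 alone. In the third group of 156 (q up to 1.27e-04) 1.28% were in both and 49.4% in neither. In the weakest 156, 0 were in both, which allows a share of up to 1.92%, and 84.0% were in neither. Among the strongest 155, 36 of 39 in the left arm, 71 of 84 in the centre and 27 of 32 in the right arm were in both lists. In the next 156 these counts were 9 of 40 (interval 10.8 to 38.5%), 11 of 80 (7.07 to 23.3%) and 9 of 36 (12.1 to 42.2%), so the centre was lowest there, with overlapping intervals.

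Peaks of V were also compared with those elsewhere within bands of like strength, 4 equal groups of the whole list. The strongest 25% of the 3792 peaks included 24.2% of V peaks, and the weakest 25% included 27.9% of V peaks and 24.4% of those elsewhere. Among the strongest 25%, 133 of 151 V peaks (88.1%, interval 81.8 to 92.8) and 685 of 797 others (85.9%) were in both lists. With chromosome I set aside the share of others was 89.2%. In the second band the shares in both were 20.9% on V (interval 14.4 to 28.8) and 22.0% elsewhere, or 26.5% elsewhere with chromosome I set aside. The shares in neither were 5.22% on V (interval 2.13 to 10.5) and 11.8% elsewhere, or 4.04% with chromosome I set aside. In the third band 41.5% of V peaks (interval 33.8 to 49.4) and 46.0% of others were in neither, or 38.4% of others with chromosome I set aside. In the weakest band 82.8% of V peaks (interval 76.3 to 88.1) and 85.1% of others were in neither, or 82.9% of others with chromosome I set aside.

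Some peaks departed from this order. The strongest V peak missing from replicate 1 was 11986494 to 11987036 (q = 1.53e-14), which replicate 2 held with identical width, 543 bp, at rank 355 (q = 1.77e-10). The strongest missing from replicate 2 was 10822660 to 10823023 (q = 4.83e-10), which replicate 1 held at rank 402 (q = 2.79e-06). The nearest replicate 2 peak lay 5552 bases away. The strongest in neither list was 8631382 to 8631693 (q = 2.25e-07), number 1560 of the series-level list. The weakest in both lists was 264906 to 265849 in the left arm, and its values ran against the others. Its series-level q-value was 1.05e-04 (rank 2869 of 3792), weaker than in replicate 1 (q = 1.24e-07, rank 240) and in replicate 2 (q = 9.38e-11, rank 331). Of the 165 V peaks in both lists it was the only one whose series-level q-value was above both replicate values, while 163 were below both. On the other chromosomes 2 of 868 such peaks did so.

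Seen from the replicates, 167 of the 182 V peaks of replicate 1 overlapped a peak of replicate 2 (91.8%, interval 86.8 to 95.3), where 90.3% of all replicate 1 peaks did. In the other direction 166 of 406 V peaks of replicate 2 overlapped replicate 1 (40.9%, interval 36.1 to 45.8; background 42.8%). The longer list limits the second share. Of the 15 replicate 1 peaks without a counterpart, 11 lay in the centre, which held 52.2% of the V peaks of that list. By part, the share with a counterpart was 95.9% in the left arm (interval 86.0 to 99.5) and 88.4% in the centre (80.2 to 94.1). In the right arm it was 94.7% (82.3 to 99.4), so the intervals overlapped. Among the weakest 46 V peaks of that list were 12 of the 15. The strongest of the 15, 10822709 to 10823087, is the peak at 10822660 described above. The strongest V peak of replicate 2 without a counterpart was 15071123 to 15071860 in the right arm (q = 6.27e-11, rank 311), which lay 880 bases from the nearest replicate 1 peak. The series-level list lacked 1 V peak of replicate 1 and 13 of replicate 2 (99.1% and 97.0% of all replicate peaks were covered). No V peak present in both replicates was missing from it.

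**Figure D3:**
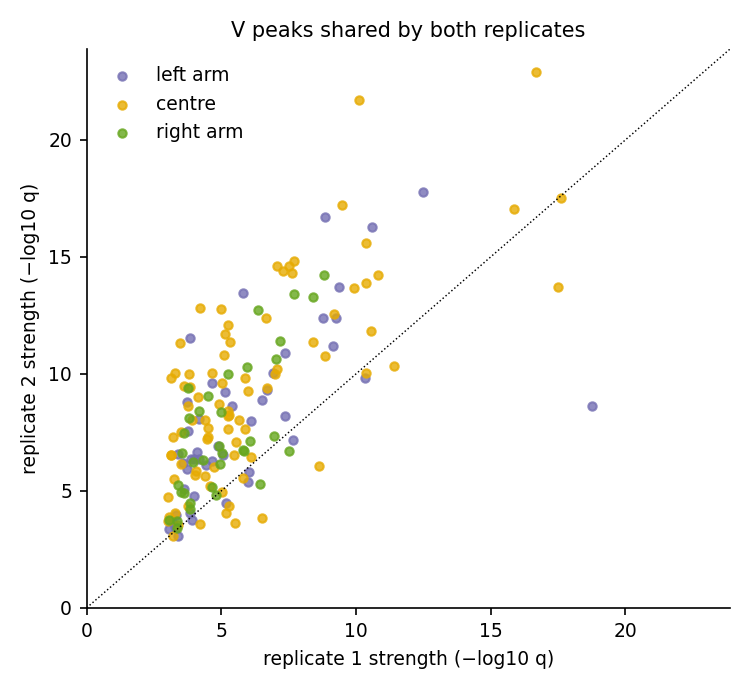
Strength (−log10 of the deposited q-value) in replicate 1 and replicate 2 of the 167 V peaks shared by both lists, coloured by part of the chromosome; the dotted line marks equal values. In 144 of the 167 the point lies above the line.

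Shared peaks kept their order of strength in part. Across the 167 shared V peaks, Spearman's rho of the q-values was 0.66 and Pearson's r of −log10 q was 0.69. By part, rho was 0.74 in the left arm (47 peaks), 0.63 in the centre (84) and 0.68 in the right arm (36). These points come from 1 pair of libraries whose depth is unknown, and rho is given as a description. In 144 of 167 (86.2%) the q-value was smaller in replicate 2, with a median −log10 q of 8.03 there and 5.04 in replicate 1. The clearest exception, singled out after its values were seen, was the strongest V peak of replicate 1, 5284007 to 5285458 in the left arm. It had q = 1.75e-19 and rank 20 there, but only rank 472 in replicate 2 (q = 2.37e-09) and number 713 at the series level (q = 4.98e-12), with widths of 1452, 1444 and 1453 bp. Positions differed little: for the 165 pairs that matched one to one, the midpoints lay a median of 35.5 bases apart, 100 pairs (60.6%) were within 50 bases, and the largest shift was 635.5. Peaks were wider in replicate 2 in 117 of these pairs and narrower in 48, with a median width ratio of 1.12.

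**Figure D4:**
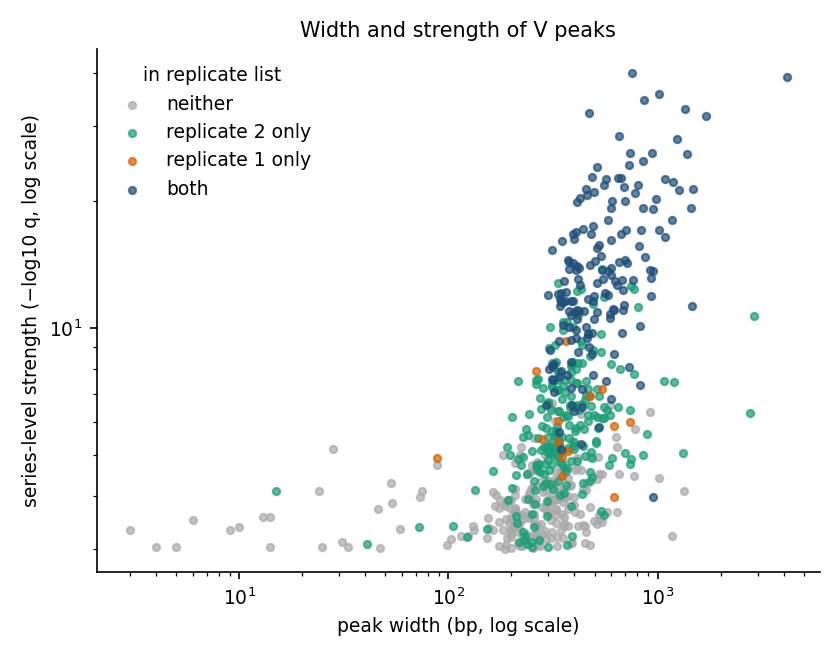
Width (bp) and series-level strength (−log10 of the deposited q-value) of the 623 V peaks, both on log scales, coloured by the replicate lists that hold them. Peaks in both lists lie toward the upper right, and none is narrower than 293 bp, while peaks in neither reach down to 3 bp.

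The median V peak was 354 bp wide, with the middle 50% of peaks between 269.5 and 486 bp. Widths hardly differed along the chromosome, with medians of 358 bp in the left arm, 356.5 in the centre and 347.5 in the right arm. The replicate lists gave medians of 379.5 and 358 bp. Width rose with strength (Spearman's rho 0.65 across 623 peaks, which share 1 list and in which a wider peak can hold more reads), from a median of 245 bp in the weakest 156 to 522 bp in the strongest 155. Peaks in both lists had a median width of 504 bp, those in replicate 2 alone 349 bp, those in replicate 1 alone 355.5 bp and those in neither 273 bp. Of the 165 in both, 139 were wider in the series-level list than in either replicate, where the medians were 383 and 430 bp.

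At the narrow end, 27 V peaks (4.33%) were under 100 bp, and 23 of these were in neither list. Replicate 1 had 1 such V peak and replicate 2 had 7. The shares on the other chromosomes ran from 2.52 to 3.87% in the series-level list. At the wide end, 23 V peaks (3.69%) exceeded 1 kb, against 2.87 to 5.25% on the other chromosomes. Of the 23, 15 were in both lists and 12 lay in the centre, which held 50.1% of all V peaks. After the left-arm peak at 6225676, the widest were a neighbouring pair in the right arm, 18721844 to 18724711 (2868 bp, q = 2.05e-11) and 18718526 to 18721282 (2757 bp, q = 4.99e-07), 561 bases apart. Replicate 2 held parts of both, at q = 5.81e-06 and 7.98e-04, and replicate 1 held none. The pair lies inside the second longest empty stretch of replicate 1, 17951604 to 18821534, in which replicate 2 had 5 peaks.

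**Figure D5:**
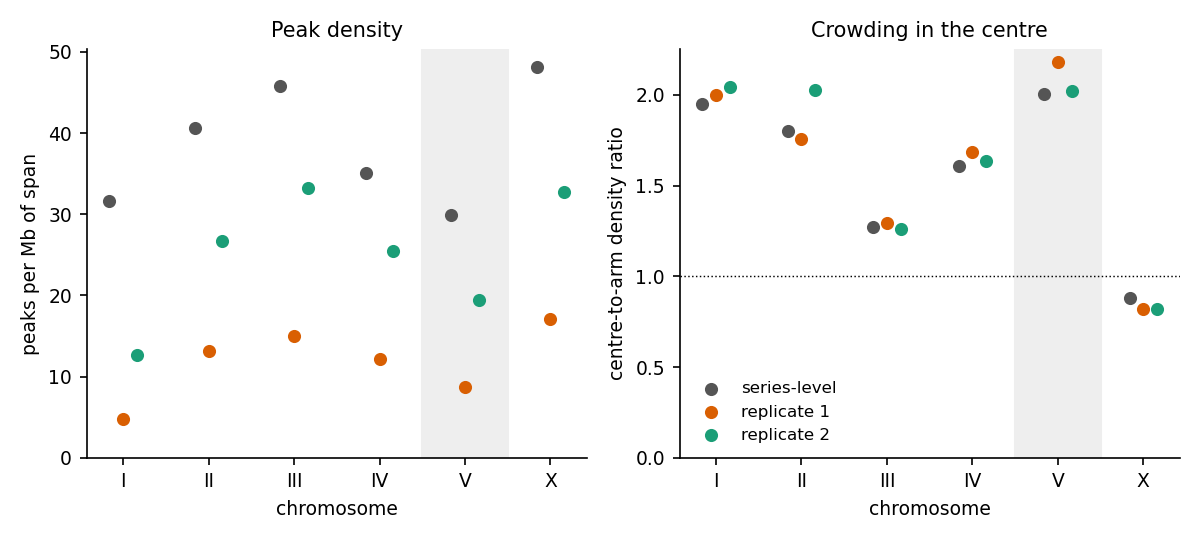
Peaks per Mb of span (left) and centre-to-arm density ratio (right) on each chromosome in the series-level list and each ChIP replicate, with V shaded. V has 29.9, 8.72 and 19.5 peaks per Mb, and chromosome I lies below it in both replicates.

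At the series level V was sparse most of all in its arms. In the series-level list V had 29.9 peaks per Mb, the lowest of the 6 chromosomes, which otherwise ran from 31.6 on I to 48.2 on X. In the replicates chromosome I was sparser, with 4.78 peaks per Mb in replicate 1 and 12.6 in replicate 2 against 8.72 and 19.5 on V. With chromosome I set aside, V was the lowest in all 3 lists. Relative to all other chromosomes together, density on V was 0.74 at the series level, with 0.70 and 0.74 in replicates 1 and 2. The arms of V had 22.4 peaks per Mb at the series level, those of the other autosomes 24.0 to 42.1 and those of X 50.2. The centre of V, at 44.9, was nearer to the other centres, which ran from 44.1 on X to 57.8 on II. In the replicates the arms of I were sparser than those of V, at 3.59 against 6.25 peaks per Mb in replicate 1 and 9.37 against 14.5 in replicate 2. The centre of V had 13.7 peaks per Mb in replicate 1, above I (7.18) and below the other centres. In replicate 2 it had 29.3, above I (19.1) and X (28.6) and below the rest. The centre-to-arm ratio of V (2.01) was the highest in the series-level list, just above I (1.95), and in replicate 1 (2.18 against 2.00 on I). In replicate 2 it was 2.02, below I (2.04) and II (2.03), so V was not the highest there.

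The share of very strong peaks on V was near that elsewhere. In the series-level list 57 of its 623 peaks (9.15%) were among the 379 strongest, against 10.2% of the peaks elsewhere. The strongest 10% of each replicate list included 10.4% of V peaks and 9.83% of others in replicate 1. In replicate 2 these shares were 9.61% and 10.0%. The median q-value of V was 5.51e-06 in the series-level list, weaker than the 1.67e-06 of the other chromosomes. In replicate 2 the order was the same, with medians of 1.06e-05 on V and 8.15e-06 elsewhere. In replicate 1 it was the opposite, 1.18e-05 on V and 3.42e-05 elsewhere.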

How the data were processed

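ChIP-seq libraries of 2 replicates and 2 input libraries are named in the labels. Analysed were 3 peak lists, 1 per ChIP replicate and 1 for the series, with coordinates on WormBase WS220 and PeakSeq as caller, per the file headers and source column. The deposited score was read as a q-value (adjusted p-value): all values are below 0.001. For PeakSeq's version and threshold, the aligner, the use of input and any pooling of reads behind the series-level list, the labels and headers say nothing: not given in the sources used here. No counts are given, so depth is unknown.

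Peaks were ranked by q-value within a list, placed by midpoint, and called shared at an overlap of at least 1 bp. Where several peaks overlapped, the strongest was used. Gaps are the bases between neighbouring peaks. Counting functions were checked on simulated lists. Python 3.11.15, numpy 2.4.6, pandas 2.3.3 and scipy 1.17.1 were used.

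The regions named follow a fixed rule: the 10 strongest and 3 widest V peaks, the 2 strongest of each part, the strongest of each recurrence class, the weakest in both lists, and the longest gaps, most crowded windows and longest chains. The members and lists were chosen with earlier results of these data known. Alternatives were another overlap, other arm bounds, merged peaks, the stronger 50% of the list and each replicate's own list.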

Additional observations from a re-analysis of the deposited data

How the results depend on the processing

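Of 52 alternative values for 11 results, 20 moved. The limit was the standard deviation of the 2 replicate values, the interval of a share, 1.5 times for counts or 0.1 for rho. That standard deviation is a loose limit, and the 2 values behind it were themselves among the alternatives. By it a median start-to-start spacing of 26278 bases in the stronger 50% of the list, against 12766, counted as unmoved. A reversal was defined only for the centre-to-arm ratio, the right-to-left ratio and the relative density of V. Of their alternative values 0 reversed direction. Leaving out chromosome I was chosen after seeing the data. The centre-to-arm ratio was 2.39 with arms of 25% of the span each, 1.69 for peaks merged within 5 kb, 2.25 for the stronger 50% of the list, and 2.02 to 2.18 in the replicates' own lists. The right-to-left ratio was 0.75 with arms of 25%, and 0.78 to 0.82 in the replicates. Among the stronger 50% of the list, 7 of 285 V peaks were in neither replicate list, the median width was 454 bp and the density of V relative to the other chromosomes 0.67. Merging within 1 kb gave a median width of 383 bp. With lists of equal length, 73.6% of replicate 1 and 73.1% of replicate 2 V peaks were shared. Relative density was 0.79 against the other autosomes, 0.70 to 0.74 in the replicates, and without chromosome I 0.71 at the series level, with 0.61 and 0.66 in replicates 1 and 2. With 1 replicate list alone, 179 to 390 V peaks were found in at least 1 list, the median width was 358 to 379.5 bp, and the median start-to-start spacing 20315 to 60817 bases, against 12766. The cause of these shifts was not tested. No paired analysis was possible because only peak lists of the ChIP libraries were analysed. Since depth is unknown, a peak listed in 1 replicate alone cannot be told apart from one below detection in the other.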

Other observations

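Peaks of V that were in neither replicate list mostly lay more than 5 kb from a V peak found in both lists. Of 219 such peaks, 18 (8.22%) lay within 1 kb and 54 (24.7%) within 5 kb of a V peak found in both lists. The median distance was 27198 bases. For the 225 peaks in replicate 2 alone these counts were 10 (4.44%) and 46 (20.4%), both smaller shares, with a median of 30547 bases. The 14 peaks in replicate 1 alone lay closer, 6 of them within 5 kb, with a median of 9817 bases. Of these few peaks 11 lay in the centre, where peaks are denser, so their distance cannot be told apart from their position. The 165 peaks in both lists lay a median of 17219 bases from the nearest other such peak, and 54 (32.7%) had one within 5 kb. These distances are descriptions, and no test was run on them. The distances that peak density alone would give were not computed, so closeness beyond that density cannot be judged.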
